A study of Mus musculus with 6 samples.

Results

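The esBAF complex is the form of the BAF (SWI/SNF) chromatin remodeller found in mouse embryonic stem cells. The genes described are 10 of the 22558 gene names in each deposited table, chosen by symbol: 7 encode subunits of the stem cell form (Smarca4, Smarcc1, Smarcb1, Smarcd1, Smarce1, Arid1a and Actl6a). The other 3 encode alternatives that other cell types use in the same positions (Smarca2, Smarcc2 and Smarcd3). Messenger RNA was sequenced from 6 mouse pluripotent cultures, with 1 library each, all at passage 25. The H2A.X Cre KO embryonic stem cells (ESC), labelled H2A.X KO, were compared with H2A.X Flox/Flox ESC, whose H2afx gene carries recombination sites, and both are of 129Sv background. Induced pluripotent stem cells (iPSC) labelled 4N- were compared with 4N+ lines of the same parental cell type, fibroblasts of the peritoneum (PF) or of the tail tip (TTF), all 4 on a 129Sv/C57 mixed background. The labels do not define 4N, which in this field usually stands for tetraploid complementation, the assay in which a line must build the embryo inside a tetraploid host. Each iPSC library is 1 line, so a 4N label and a line cannot be told apart within a parental cell type. The iPSC source names also carry H2A.X, with no genotype given. All cultures grew on feeder cells with LIF and were passed onto gelatin shortly before lysis to leave the feeders behind.

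BAF complexes use the energy of ATP to slide or evict nucleosomes and so open regulatory DNA. A complex holds 1 of a pair of ATPases, BRG1 (Smarca4) or BRM (Smarca2), together with scaffold, DNA-binding and actin-related subunits, several of which come as interchangeable paralogs. In mouse ESC the complex is known for containing BRG1, BAF155 (Smarcc1) and BAF60a (Smarcd1) and for holding little or no BRM, BAF170 (Smarcc2) or BAF60c (Smarcd3). As ESC differentiate, alternative subunits are taken up, and loss of BRG1, BAF155 or BAF250a (Arid1a) in mouse ESC is known to disturb self-renewal.

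Promoters of 9 of the 10 genes were found in the RefSeq table (build GRCm38.p6). The windows of the ATPase pair and the BAF60 pair are printed because in these pairs, on FPKM as deposited, the alternative was higher and the stem cell gene lower in the KO ESC library, whereas both genes of the scaffold pair were lower. Each run is the 250 bases before the annotated start, 5′ to 3′ on the gene's strand, in lower case, with the Sp-type motif GGGCGG (either strand) in capitals.
Smarca2 (chr19:26604910-26605159, plus strand): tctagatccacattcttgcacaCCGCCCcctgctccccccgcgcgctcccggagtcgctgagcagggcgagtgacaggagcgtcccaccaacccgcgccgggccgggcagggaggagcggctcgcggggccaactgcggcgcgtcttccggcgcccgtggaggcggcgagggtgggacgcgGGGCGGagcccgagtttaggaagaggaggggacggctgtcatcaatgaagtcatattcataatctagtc
Smarca4 (chr9:21615919-21616168, plus strand): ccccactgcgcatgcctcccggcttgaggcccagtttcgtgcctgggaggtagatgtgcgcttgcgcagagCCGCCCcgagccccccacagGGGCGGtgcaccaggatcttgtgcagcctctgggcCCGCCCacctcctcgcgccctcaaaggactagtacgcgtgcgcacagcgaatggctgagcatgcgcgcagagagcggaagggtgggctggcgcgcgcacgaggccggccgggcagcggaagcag
Smarcd3 (chr5:24602003-24602252, minus strand): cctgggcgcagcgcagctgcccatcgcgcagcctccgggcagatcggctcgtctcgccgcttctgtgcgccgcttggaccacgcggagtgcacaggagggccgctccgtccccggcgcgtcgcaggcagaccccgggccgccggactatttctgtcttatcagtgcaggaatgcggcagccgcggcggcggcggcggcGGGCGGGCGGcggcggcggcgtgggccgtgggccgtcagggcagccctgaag
Smarcd1 (chr15:99702037-99702286, plus strand): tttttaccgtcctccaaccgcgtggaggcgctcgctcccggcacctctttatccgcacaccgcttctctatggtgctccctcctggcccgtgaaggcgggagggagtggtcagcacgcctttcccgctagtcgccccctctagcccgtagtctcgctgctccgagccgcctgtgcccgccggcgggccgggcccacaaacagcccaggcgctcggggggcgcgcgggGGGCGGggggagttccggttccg

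GC content of these windows was 68.4% for Smarca2, 70.8% for Smarca4, 76.0% for Smarcd3 and 71.2% for Smarcd1, against a median of 52.4% over 32841 promoter windows. Both members of each pair therefore had GC-rich windows with many CpG dinucleotides (28, 25, 38 and 29 in the same order, against a median of 6). Among the 10 windows of the 9 genes (Arid1a has 2), 9 held GGGCGG on either strand, the exception being Smarcc2, and 32.7% of all windows hold it. The ETS-type motif CCGGAAG was in 2 of the 10 (6.91% of all windows), those of Smarca2 and Smarcc1. The octamer ATGCAAAT (1.60% of all windows), the E-box CACGTG (6.02%) and CCAAT (33.9%) were in none of the 10, each searched on both strands. The motifs were picked after the expression values had been seen, overlap between motifs was not removed, and a match of letters describes the window only.

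Values are FPKM (fragments per kilobase of transcript, scaled to library depth), so levels of different genes can be set side by side. Effective depth, recovered from the step size of values of intronless receptor genes, was 39.1 M to 61.2 M fragments. Each library held 11031 to 11852 genes at 1 FPKM or more. H2afx stood at 6.18 FPKM in the KO ESC and 34.9 FPKM in Flox/Flox ESC, the direction of the labels, with transcript remaining. It stood at 75.2 FPKM in 4N- PF and 69.1 FPKM in 4N+ PF cells, and at 65.3 FPKM in 4N- TTF and 70.9 FPKM in 4N+ TTF cells. Within a table, differences are given as the log2 ratio of FPKM + 1, and genes at 1 FPKM or more in at least 1 of the 2 libraries count as measured. All 10 members were measured in the ESC and PF tables and 9 in the TTF table, where Smarca2 stayed under 1 FPKM. The 3 tables may have been scaled separately, so levels set across them carry that limit. In bulk cultures, fewer cells of a type and less RNA per cell cannot be told apart.

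The summed level of the stem cell subunits stood far above that of the alternatives in every library. Smarce1 was the exception among single genes, below the alternative Smarcc2 in 4 of the 6 libraries and, in 4N- PF cells, also below Smarcd3. Actl6a, Smarcc1 and Smarcb1 held ranks 1, 2 and 3 among the 10 members in all 6 libraries. Summed over the 7 stem cell genes the level was 175 FPKM in the KO ESC and 277 FPKM in Flox/Flox ESC. In the iPSC the sums were 217 FPKM (4N- PF) and 257 FPKM (4N+ PF), and 318 FPKM (4N- TTF) and 308 FPKM (4N+ TTF). The 3 alternatives summed to 10.7 FPKM in the KO ESC and 10.2 FPKM in Flox/Flox ESC. Their sums were 13.4 FPKM (4N- PF) and 10.4 FPKM (4N+ PF), and 7.59 FPKM (4N- TTF) and 8.67 FPKM (4N+ TTF).

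**Figure D1:**
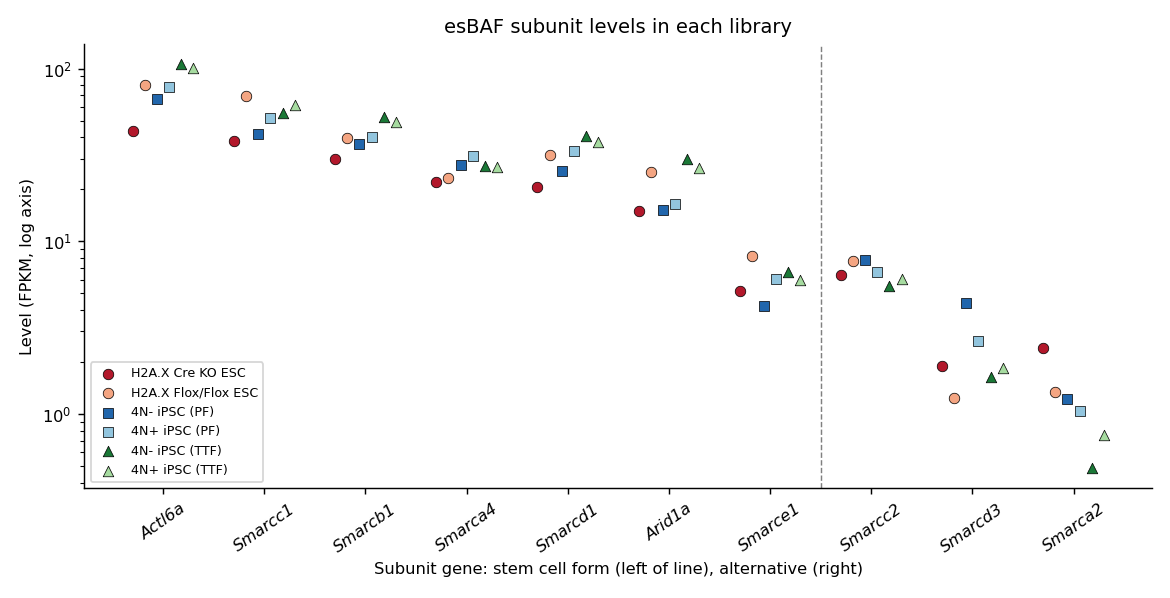
Level of each member in FPKM (log axis) in the 6 libraries, 1 point a library, with stem cell subunits left of the dashed line and alternatives right of it. Actl6a is highest in every library (43.7 to 106 FPKM), and Smarca2 is the only member with libraries under 1 FPKM (0.484 and 0.759 FPKM in the TTF lines).

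In the ESC comparison, which sets the KO library against the Flox/Flox library, all 7 stem cell subunits were lower in the KO library and 2 of the 3 alternatives were higher. Each ESC genotype is 1 library, so genotype and culture cannot be told apart. Actl6a, Smarcc1 and Arid1a were at least 1.5-fold lower, 3 of 10 members, a mark that 15.9% of the 12086 measured genes passed downward. No member was 1.5-fold higher, against 17.8% of measured genes, and none differed 2-fold, against 11.2% of measured genes in either direction. The median log2 ratio was -0.58 over the 7 stem cell genes and 0.37 over the 3 alternatives, beside -0.03 over all measured genes.

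These shares depend on how strongly a gene is expressed. Among the 5286 genes with a mean of 10 FPKM or more in this pair, 68.7% were lower in the KO, the median was -0.27 and 26.1% were at least 1.5-fold lower. All 6 members at that level were lower, 3 of them 1.5-fold. Among the 6299 genes with a mean from 1 to under 10 FPKM, 40.1% were lower and the median was 0.13. The 4 members at that level divided into 2 lower (Smarce1 and Smarcc2) and 2 higher (Smarca2 and Smarcd3). Genes that reached 5 FPKM in both ESC libraries had a median shift of -0.20. Relative to that shift the stem cell median was -0.38, the alternative median was 0.57, and 2 members (Actl6a and Smarcc1) stayed 1.5-fold lower, against 8.09% of genes.

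The ATPase pair was divided. Smarca4 (chromosome 9, 21420613 to 21508674 on mm9), the BRG1 ATPase, had 22 FPKM in the KO ESC and 23.2 FPKM in Flox/Flox ESC. It had 27.5 FPKM in 4N- PF and 31.2 FPKM in 4N+ PF cells, and 27.1 FPKM in 4N- TTF and 27.0 FPKM in 4N+ TTF cells. The catalytic subunit thus varied least of the stem cell genes, 1.42-fold between its lowest and highest library. Its log2 ratio was -0.08 in the ESC pair, and 0.13 relative to the shift of expressed genes, so its sign depends on the scaling.

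Smarca2 (chromosome 19, 26679650 to 26852811), the alternative ATPase BRM, had 2.40 FPKM in the KO ESC and 1.34 FPKM in Flox/Flox ESC. It had 1.22 FPKM in 4N- PF and 1.04 FPKM in 4N+ PF cells, and 0.484 FPKM in 4N- TTF and 0.759 FPKM in 4N+ TTF cells. The KO ESC library was the highest of the 6 for this gene. The ESC log2 ratio was 0.54, and on FPKM without the added 1 it was 0.84 (95% counting interval 0.65 to 1.03, from about 536 and 382 fragments). Such intervals are conditional binomial ones that cover counting error only, and they use the length of an annotated GENCODE M21 transcript. An antisense gene, 4931403E22Rik, overlaps Smarca2 exons. No source says whether counting used strand, so the reads of the 2 genes cannot be told apart.

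The scaffold pair BAF155 and BAF170 was led by the stem cell form. Smarcc1 (chromosome 9, 110034528 to 110142682) had 38.3 FPKM in the KO ESC and 69.4 FPKM in Flox/Flox ESC. It had 41.5 FPKM in 4N- PF and 51.4 FPKM in 4N+ PF cells, and 55.5 FPKM in 4N- TTF and 61.3 FPKM in 4N+ TTF cells. Smarcc1 was the one stem cell subunit lower in the first-named library of all 3 pairs, with log2 ratios of -0.84, -0.30 and -0.14. Of genes with a mean of 10 FPKM or more, 68.7%, 77.4% and 44.3% were lower in the same pairs, each taken alone. The share lower in all 3 was not counted. In the ESC pair the KO level of Smarcc1 was 0.552 of the Flox/Flox level. On FPKM + 1, the log2 ratio of -0.84 was lower than that of all but 6.69% of measured genes. A near-identical copy, Gm7004, matches 1008 bases of the transcript at 95% identity or more, so the value is uncertain to that extent.

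Smarcc2 (chromosome 10, 127896292 to 127927230) had 6.38 FPKM in the KO ESC and 7.67 FPKM in Flox/Flox ESC. It had 7.78 FPKM in 4N- PF and 6.66 FPKM in 4N+ PF cells, and 5.47 FPKM in 4N- TTF and 6.07 FPKM in 4N+ TTF cells. Of the alternatives it was the most abundant and the steadiest, with a 1.42-fold range. Its ESC log2 ratio of -0.23 became -0.03 relative to the shift.

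In the BAF60 pair, which links BAF to transcription factors, Smarcd1 (BAF60a, chromosome 15, 99532718 to 99544426) had 20.7 FPKM in the KO ESC and 31.5 FPKM in Flox/Flox ESC. It had 25.4 FPKM in 4N- PF and 33.4 FPKM in 4N+ PF cells, and 40.5 FPKM in 4N- TTF and 37.3 FPKM in 4N+ TTF cells. The KO ESC library was the lowest of the 6. The ESC log2 ratio of -0.58 lay just short of the 1.5-fold mark and passed it with a smaller pseudocount. Gm17349 and Gm34939 overlap Smarcd1 exons on the other strand, sharing up to 287 bases, so reads there cannot be assigned to 1 gene.

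Smarcd3 (BAF60c, chromosome 5, 24098440 to 24107820), known as the heart and muscle form in mouse, had 1.89 FPKM in the KO ESC and 1.24 FPKM in Flox/Flox ESC. It had 4.4 FPKM in 4N- PF and 2.65 FPKM in 4N+ PF cells, and 1.63 FPKM in 4N- TTF and 1.84 FPKM in 4N+ TTF cells. Both PF lines were above the other 4 libraries. The ESC difference rested on about 113 and 95 fragments, giving a log2 FPKM ratio of 0.60 (95% counting interval 0.20 to 1.01). Chpf2, which overlaps Smarcd3 on the other strand, stood at 3.12 FPKM in the KO ESC and 0.845 FPKM in Flox/Flox ESC, moving the same way. In the PF pair Chpf2 was at 0.737 FPKM (4N-) and 0.994 FPKM (4N+), the opposite direction to Smarcd3. Its part in the Smarcd3 values was not tested. Smarcd2 (BAF60b), the remaining paralog, stood at 18.5 FPKM in the KO ESC and 20.9 FPKM in Flox/Flox ESC, a log2 ratio of -0.17.

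Among the shared core subunits, Smarcb1 (chromosome 10, 75359514 to 75384359), the SNF5 core subunit and a tumour suppressor, had 30 FPKM in the KO ESC and 39.4 FPKM in Flox/Flox ESC. It had 36.5 FPKM in 4N- PF and 40.3 FPKM in 4N+ PF cells, and 52.5 FPKM in 4N- TTF and 49.3 FPKM in 4N+ TTF cells. The ESC log2 ratio was -0.38, or -0.18 relative to the shift.

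Smarce1 (BAF57, a DNA-binding HMG subunit, chromosome 11, 99070362 to 99092331) had 5.18 FPKM in the KO ESC and 8.17 FPKM in Flox/Flox ESC. It had 4.23 FPKM in 4N- PF and 6.05 FPKM in 4N+ PF cells, and 6.60 FPKM in 4N- TTF and 5.95 FPKM in 4N+ TTF cells. It was the lowest stem cell subunit in every library, at the level of Smarcc2. Annotated transcripts of 4 other genes (Smarce1-ps1, Gm13320, Gm4811 and Gm8494) match up to 1233 of its bases at 95% identity or more. How the authors' counting treated reads that fit several of them is not given in the sources used here, so the level is uncertain.

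Arid1a (BAF250a, the subunit that defines canonical BAF, chromosome 4, 133234923 to 133309526) had 14.9 FPKM in the KO ESC and 25.2 FPKM in Flox/Flox ESC. It had 15.1 FPKM in 4N- PF and 16.4 FPKM in 4N+ PF cells, and 30.1 FPKM in 4N- TTF and 26.6 FPKM in 4N+ TTF cells. The KO ESC and both PF lines were low for this gene, and the Flox/Flox ESC and both TTF lines were high. Its ESC log2 ratio was -0.72. Arid1b, the paralog that replaces it in a complex, was level at 2.24 FPKM in the KO ESC and 2.26 FPKM in Flox/Flox ESC.

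Actl6a (BAF53a, an actin-related subunit of proliferating cells, chromosome 3, 32607468 to 32625893) had 43.7 FPKM in the KO ESC and 80.4 FPKM in Flox/Flox ESC. It had 66.8 FPKM in 4N- PF and 78.0 FPKM in 4N+ PF cells, and 106 FPKM in 4N- TTF and 101 FPKM in 4N+ TTF cells. The KO ESC library was well below the other 5, and the ESC log2 ratio of -0.86 was the largest among the members. Mrpl47 overlaps Actl6a on the other strand and stood at 28.0 FPKM in the KO ESC and 54.0 FPKM in Flox/Flox ESC, so its reads could not be separated. Actl6b (BAF53b), the form of postmitotic neurons, was at 0.133 FPKM in the KO ESC and 0.0895 FPKM in Flox/Flox ESC, under 1 FPKM in every library.

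The authors' deposited table for the ESC pair called none of the 10 members, and the lowest p there was 0.124 (q = 0.750), for Actl6a. It called 210 of 22558 genes, 0.931%. The authors' deposited tables for the iPSC pairs also called no member, with lowest p of 0.132 in the PF table (Smarcd3) and 0.162 in the TTF table (Smarca2). With 1 library per condition there is no replicate error, so none of the single-pair differences has a test over samples.

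**Figure D2:**
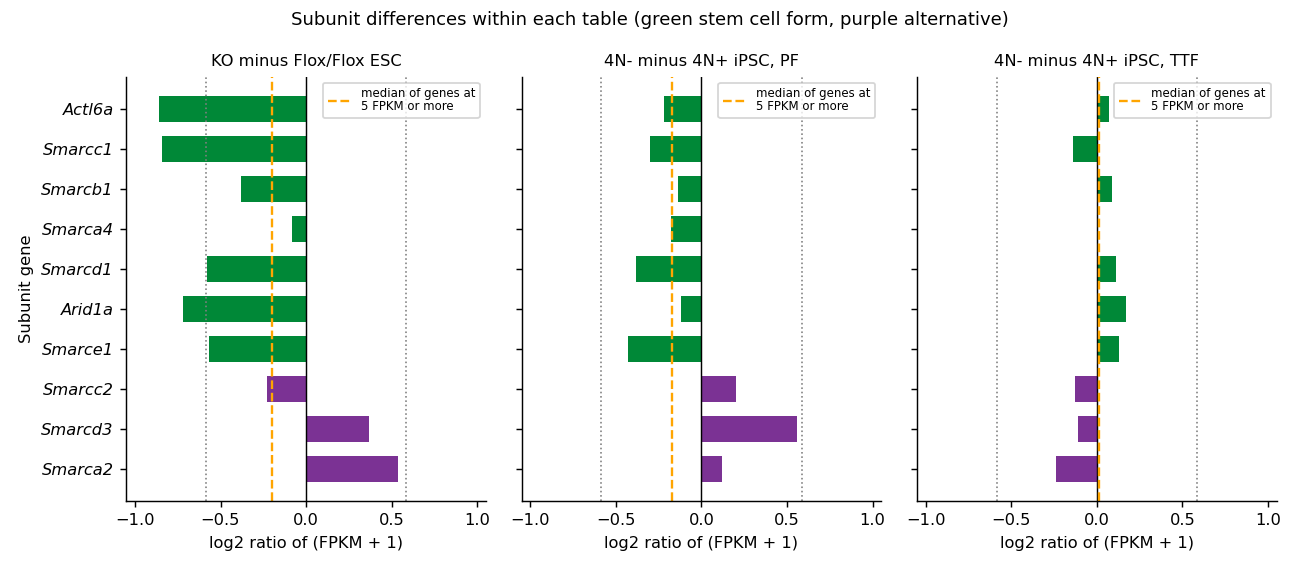
Log2 ratio of FPKM + 1 for each member in the 3 pairs (green, stem cell subunits; purple, alternatives), with the median shift of genes reaching 5 FPKM in both libraries (orange dashes) and the 1.5-fold marks (dotted). In the ESC pair Actl6a (-0.86), Smarcc1 (-0.84) and Arid1a (-0.72) lie past the mark, and in both iPSC pairs no member does.

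A share within 1 library does not depend on scaling between libraries, so the makeup of each paralog pair was compared as the alternative's share of the pair's summed FPKM. Smarca2 made up 9.84% of the ATPase pair in the KO ESC (95% counting interval 9.06% to 10.7%) and 5.45% in the Flox/Flox ESC (4.93% to 6.01%). Smarcc2 made up 14.3% of its pair in the KO ESC (13.5% to 15.1%) and 9.95% in the Flox/Flox ESC (9.50% to 10.4%). Smarcd3 made up 8.34% of its pair in the KO ESC (6.96% to 9.92%) and 3.78% in the Flox/Flox ESC (3.09% to 4.61%). Smarcd2, the remaining BAF60 paralog, was left out of this sum, at 18.5 FPKM in the KO ESC and 20.9 FPKM in Flox/Flox ESC. In the iPSC Smarcd2 stood at 22.6 FPKM (4N- PF), 32.6 FPKM (4N+ PF), 16.8 FPKM (4N- TTF) and 17.4 FPKM (4N+ TTF). All 3 alternative shares were higher in the KO library, and the stem cell form still made up most of each pair. Their intervals did not overlap, but these cover counting error only. How often other gene pairs at such levels differ as much was not tested. Each alternative had a mean of 1 to under 10 FPKM in the 2 ESC libraries, and each partner 10 FPKM or more. Over all measured genes at those levels the median log2 ratios were 0.13 and -0.27. The part of this difference between levels in the shares was not tested. The KO over Flox/Flox FPKM ratio was 1.79 for Smarca2 beside 0.947 for Smarca4, 0.831 for Smarcc2 beside 0.552 for Smarcc1, and 1.52 for Smarcd3 beside 0.658 for Smarcd1. The 3 pairs thus moved apart in different ways, with the alternative gene further from 1 in the ATPase pair and the stem cell gene further from 1 in the scaffold pair. Arid1b, outside the 3 pairs, made up 13.1% of its sum with Arid1a in the KO ESC and 8.23% in the Flox/Flox ESC.

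The PF pair showed the same direction in all 3 shares and the TTF pair did not. Smarcd3 made up 14.8% of its pair in the 4N- PF line (13.3% to 16.3%) and 7.36% in the 4N+ PF line (6.37% to 8.43%). Smarcc2 made up 15.8% in the 4N- PF line (15.1% to 16.5%) and 11.5% in the 4N+ PF line (10.9% to 12.1%). Smarca2 made up 4.24% in the 4N- PF line (3.79% to 4.73%) and 3.24% in the 4N+ PF line (2.87% to 3.64%). In the TTF pair Smarcd3 stood at 3.88% (4N-) and 4.71% (4N+), with overlapping intervals of 3.30% to 4.52% and 4.04% to 5.45%. Smarcc2 was level at 8.97% (4N-) and 9.01% (4N+) there, and Smarca2 stood at 1.76% (4N-, 1.5% to 2.04%) and 2.73% (4N+, 2.41% to 3.08%). The alternative over stem cell ratio of the BAF60 pair was 2.31 times higher in the KO than in the Flox/Flox ESC and 2.18 times higher in the 4N- than in the 4N+ PF line. It was 0.816 of the 4N+ value in the 4N- TTF line. Over all measured genes the PF median log2 ratio was -0.07 at 1 to under 10 FPKM and -0.19 at 10 FPKM or more. No replicate error stands behind any of these shares.

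**Figure D3:**
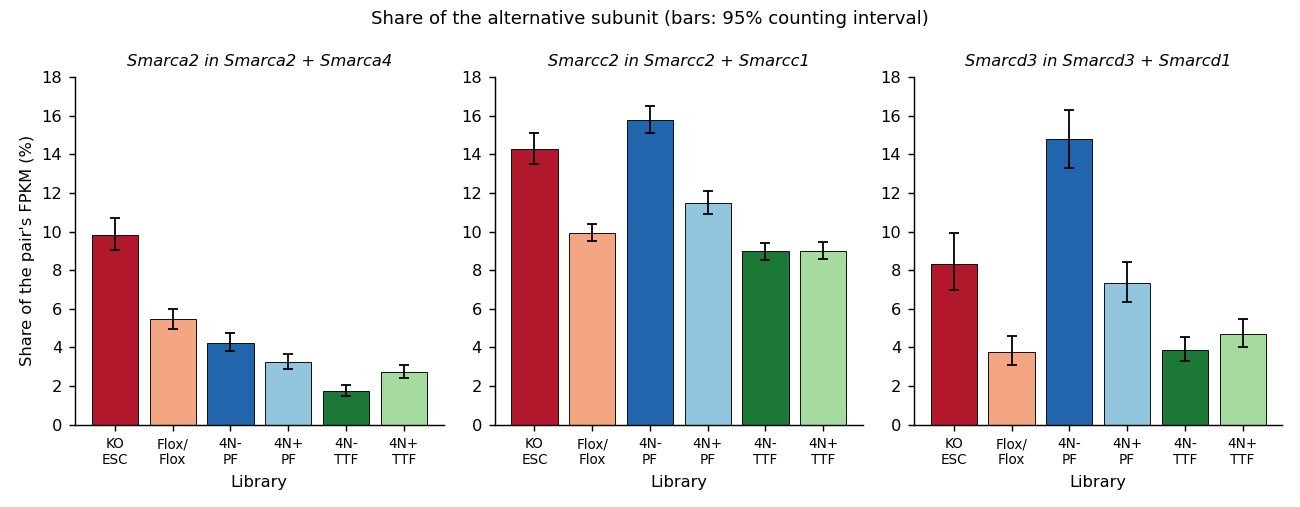
Share of the alternative subunit in the summed FPKM of its paralog pair (percent, bars from 0) in each library, with 95% counting intervals that cover counting error only. The sum for Smarcd3 and Smarcd1 leaves out the paralog Smarcd2. The KO ESC and 4N- PF bars stand above their partners in all 3 panels, for example 14.8% against 7.36% for Smarcd3 in the PF lines, and the 4N- TTF bars do not.

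The PF pair asks how a 4N- line differs from a 4N+ line. All 7 stem cell subunits were lower in the 4N- line (log2 ratios from -0.43 for Smarce1 to -0.12 for Arid1a) and all 3 alternatives were higher, led by Smarcd3 at 0.56. No member was 1.5-fold lower, against 4.85% of 11606 measured genes, or 1.5-fold higher, against 1.98%, and none was past 2-fold, against 1.55%. Of all measured genes 68.1% were lower in the 4N- line, and of the 5321 genes at 10 FPKM or more 77.4% were. Relative to the shift of -0.17 for expressed genes, the stem cell median was -0.06 and the alternative median 0.36, and Smarcb1 (0.02) and Arid1a (0.05) turned positive. Of the stem cell genes, Smarce1 (-0.27), Smarcd1 (-0.21) and Smarcc1 (-0.13) were the furthest below the shift.

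In the TTF pair the pattern was turned round and small. Of the 7 stem cell subunits 6 were higher in the 4N- line, up to 0.17 for Arid1a, with Smarca4 at 0.00 and Smarcc1 lower at -0.14. The 2 measured alternatives, Smarcc2 (-0.13) and Smarcd3 (-0.11), were lower, as was Smarca2 (-0.24) under 1 FPKM. No member was past 1.5-fold lower, against 0.907% of 11354 measured genes, or higher, against 0.828%, and none past 2-fold, against 0.749%. For Smarca2 this depends on the added 1 FPKM: on plain FPKM its log2 ratio was -0.65 (95% counting interval -0.94 to -0.37, from about 169 and 257 fragments). The shift of expressed genes was only 0.01 here.

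The 4 iPSC libraries allow 1 replicated test of 4N- against 4N+ lines. It was made with limma on log2(FPKM + 1), with parental cell type as a block, which leaves 1 residual degree of freedom per gene before moderation. None of the 10 members was called at an adjusted p below 0.05, against 14 of 11985 genes (0.117%), and none reached an unadjusted p below 0.05, where 446 genes did. The largest member estimates were those of Smarcd3 (0.23, SE 0.18) and Smarcc1 (-0.22, SE 0.20), each with a limma adjusted p of 0.999. Of the 10 members 9 had opposite signs in the 2 pairs, Smarcc1 being the exception, and 52.7% of the 10975 genes measured in both pairs did so. Smarca4, counted among the 9, was near level in the TTF pair (0.00). Nothing in the labels says whether the lines came from separate animals, so the p-values speak for these lines only. The residual behind them is how far the label difference varies between the PF and TTF pairs. Moderation drew on the spread of the other genes and gave 10.54 total degrees of freedom.

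Other BAF subunits were also described in the ESC pair, where 51.7% of all measured genes were lower in the KO and 449 of 12086 were at least 2-fold lower. From a list of 21 subunits of BAF and of its relatives PBAF and ncBAF, 20 were analysed and 15 were measured. Of these 11 were lower and 4 higher in the KO, with a median of -0.17, or 0.04 relative to the shift. The one gene past 2-fold was Arid2, the ARID subunit specific to PBAF, at 10.1 FPKM in the KO ESC and 21.8 FPKM in Flox/Flox ESC. Phf10, another PBAF subunit, stood at 34 FPKM in the KO ESC and 66.6 FPKM in Flox/Flox ESC, and Ss18, a dedicated BAF subunit, at 29.4 FPKM in the KO ESC and 45.1 FPKM in Flox/Flox ESC. These 3 were the genes at least 1.5-fold lower, against 15.9% of measured genes, and none of the 15 was 1.5-fold higher, against 17.8%. The neuronal paralog of Ss18, Ss18l1, differed the other way, at 3.61 FPKM in the KO ESC and 2.48 FPKM in Flox/Flox ESC, and Phf10, Ss18 and Ss18l1 were picked for mention after their values were seen.

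Of 30 measured genes of other remodellers, 26 were lower in the KO (beside 51.7% of all measured genes), 3 of them at least 2-fold, with a median of -0.39. The 3 were Hells (73.7 FPKM in the KO ESC and 187 FPKM in Flox/Flox ESC), a helicase needed for DNA methylation, the ISWI ATPase gene Smarca5 (11.4 and 25.2 FPKM in the same order), and Smarcad1 (14.7 and 30.7 FPKM), which acts in heterochromatin upkeep. None of the 30 was 2-fold higher. Among all genes with a mean of 10 FPKM or more in the ESC pair, 68.7% were lower, with a median of -0.27. Relative to the shift the median of the 30 was -0.19. Of 14 genes of the stem cell network that esBAF is known to act with, 12 were lower in the KO, 3 of them at least 2-fold. The median of the 14 was -0.63, or -0.43 relative to the shift. The 12 include Nanog, which was level at 111 FPKM in both ESC libraries. In the 4N- line 8 of the 14 were lower in the PF pair (median -0.07) and 9 in the TTF pair (median -0.10). Of all measured genes 68.1% were lower in the PF pair and 49.9% in the TTF pair. In the PF pair 21 of 30 other remodellers and 12 of 15 other BAF subunits were lower in the 4N- line (medians -0.14 and -0.18). Relative to the PF shift these medians were 0.02 and -0.01. Arid2 was again 1.5-fold lower there, at 8 FPKM for 4N- against 13.8 FPKM for 4N+, together with Actb, the actin subunit, at 201 FPKM for 4N- against 307 FPKM for 4N+. In the PF pair 4.85% of measured genes passed that mark downward. In the TTF pair 18 of 30 and 11 of 16 were lower (medians -0.01 and -0.03), beside 49.9% of all measured genes.

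**Figure D4:**
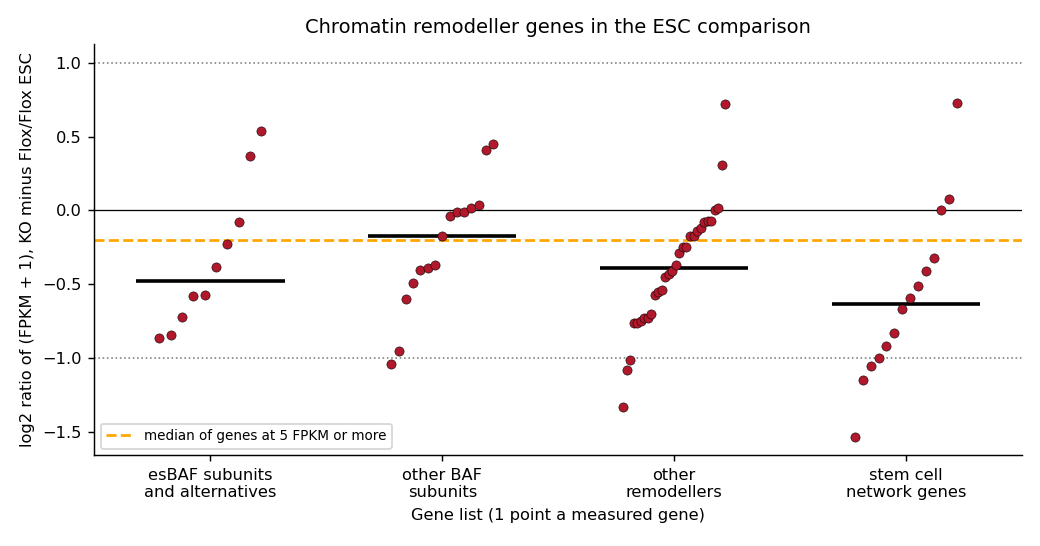
Log2 ratio of FPKM + 1, KO minus Flox/Flox ESC, for each measured gene of 4 lists, with list medians (black bars), the median shift of genes reaching 5 FPKM in both libraries (orange dashes) and the 2-fold marks (dotted). The medians are -0.48 for the 10 members, -0.17 for other BAF subunits, -0.39 for other remodellers and -0.63 for stem cell network genes.

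Summed levels of trophoblast, primitive endoderm, and fibroblast and feeder markers were higher in the KO ESC, and the neural sum was level. Trophoblast markers summed to 1158 FPKM in the KO ESC and 53.7 FPKM in Flox/Flox ESC, while Elf5 was at most 0.0382 FPKM. Of 9 measured genes 7 were at least 2-fold higher, beside 905 of all 12086 measured genes. The other 2, Eomes (-0.39) and Ascl2 (-0.08), were lower. Among the 7, Hand1, Gata2 and Gata3 reached 1 FPKM in the KO library alone. They count as measured only through the library where they are high, so the filter tilts the count. Krt18 (659 FPKM), Rhox6 (247 FPKM) and Krt8 (188 FPKM) made up most of the KO sum. Primitive endoderm markers summed to 129 FPKM in the KO ESC and 37.5 FPKM in Flox/Flox ESC (3 of 6 measured genes 2-fold higher), with Sox17 at most 0.105 FPKM. Lamb1 (45.7 FPKM), Col4a1 (45.0 FPKM) and Col4a2 (29.3 FPKM) made up most of the KO sum. Gata4 (2.29 FPKM), Pdgfra (0.596 FPKM), Gata6 (0.557 FPKM) and Sox7 (0.217 FPKM) stood low in the KO ESC, and Lama1 was lower there (-0.19). Gata4, among the 3, reached 1 FPKM in the KO library alone. Fibroblast and feeder markers summed to 73.2 FPKM in the KO ESC and 10.3 FPKM in Flox/Flox ESC (4 of 4 measured genes 2-fold higher). Tagln alone held 62.3 FPKM of the KO sum, while Col1a1 was at most 0.291 FPKM and Lum was listed at 0 in both. Of the 4 measured fibroblast markers, S100a4 and Acta2 reached 1 FPKM in the KO library alone, so the same limit holds. Neural markers summed to 23.0 FPKM in the KO ESC and 22.9 FPKM in Flox/Flox ESC. In the PF pair fibroblast markers ran the other way, with a sum of 13.5 FPKM for 4N- against 74.4 FPKM for 4N+. S100a4 alone held 40.1 FPKM of the 4N+ sum. Of 7 measured fibroblast markers 5 were 2-fold lower, beside 113 of all 11606 measured genes. These 5 (Col1a1, Col1a2, S100a4, Postn and Acta2) reached 1 FPKM in the 4N+ line alone. They count as measured only through the line where they are high, so the filter tilts the count. In the TTF pair the fibroblast markers summed to 28.7 FPKM (4N-) and 27.2 FPKM (4N+). Marker sums of bulk RNA do not show whether cells of these types were present, and their part in the subunit values was not tested.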

How the data were processed

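Per the submitters' processing notes, CASAVA and TopHat2 were used, with build mm9. Which program made the FPKM, on which annotation and with what strand setting is not stated in these notes or in the labels. The authors deposited 3 tables, each with FPKM for 2 libraries and the authors' p-values and q-values per gene. FPKM was inferred from the values, and the column headed Ctrl was taken as Flox/Flox. Coordinates are those of the files, with starts moved to 1-based.

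Ratios were formed within a table on log2(FPKM + 1). limma 3.58.1 in R 4.3.3 (trend, Benjamini-Hochberg adjustment) was fitted to all genes at 1 FPKM or more and tested on simulated data. Pairing came from parental cell type, which also matches the deposited tables. Depth was fitted on 1169 intronless receptor genes with 204 bases taken off each length, and 100% of the values were then within 0.05 of a whole number. These include the 1-fragment values that set the depth. Lengths of spliced genes were not recovered, which leaves whole reads per gene unknown and a test on counts not possible. Fragments of members are approximate and use the shortest principal GENCODE transcript. Near-identical transcripts were sought with BLAST 2.17.0 (95% identity over 100 bases). PCR copies make counting intervals too narrow.

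All 10 members are named. From the other BAF and remodeller lists, genes past 2-fold in the ESC pair and the paralogs Arid1b, Smarcd2 and Actl6b are named. The members and lists were chosen with earlier results of these data known. The level classes, the motifs and the overlapping genes were chosen after values were seen. Of the listed genes, Gltscr1l, Srcap, Tfap2c and Map2 are not analysed here. Alternatives tried were pseudocounts of 0.1 and 0.01 FPKM, centring, filters of 0 and 5 FPKM, no replicate block and leaving out each iPSC library.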

Additional observations from a re-analysis of the deposited data

Results flagged for a closer look

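The 4N- against 4N+ log2 ratio of 9 members pointed one way in the PF pair and the other way in the TTF pair. So did 52.7% of the 10975 genes measured in both pairs. Smarca4, counted among the 9, was near level in the TTF pair (27.1 FPKM for 4N- and 27.0 FPKM for 4N+). The difference between the pairs was not tested, since each holds 1 library a label. As PF minus TTF it was 0.68 for Smarcd3 (0.56 and -0.11), 0.36 for Smarca2 (0.12 and -0.24) and 0.32 for Smarcc2 (0.20 and -0.13). It was -0.56 for Smarce1 (-0.43 and 0.13), -0.49 for Smarcd1 (-0.38 and 0.11), -0.29 for Arid1a (-0.12 and 0.17) and -0.29 for Actl6a (-0.22 and 0.07). It was -0.23 for Smarcb1 (-0.14 and 0.09) and -0.18 for Smarca4 (-0.18 and 0.00). After centring each pair on its expressed genes, 6 of the 10 members had opposite signs. The matching share of all genes after centring was not counted.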

How the results depend on the processing

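About 95 to 536 fragments stand behind each value of Smarca2 and Smarcd3. Of the 30 within-table member ratios, none changed sign with a pseudocount of 0.1 or 0.01 FPKM and 4 did after centring (Smarca4 in the ESC and TTF pairs, Smarcb1 and Arid1a in the PF pair). In the ESC pair 5 members were 1.5-fold lower with either smaller pseudocount, where 18.7% and 19.0% of measured genes were. There 1 (0.1 FPKM), 2 (0.01 FPKM) or 1 (centred) of the 10 were 1.5-fold higher, against 22.9%, 23.5% and 26.7% of measured genes. In the PF pair 1 member, Smarcd3, was 1.5-fold higher with either smaller pseudocount or after centring, where 3.89%, 4.29% and 4.4% of measured genes were. The Smarca2 ratio in the TTF pair was -0.56 and -0.64 with the smaller pseudocounts, against -0.24. Centring moved the median of the 10 members to -0.27 (ESC) and 0.01 (PF). Genes past 2-fold numbered 2221 and 2326 (ESC) and 312 and 344 (PF) with pseudocounts of 0.1 and 0.01 FPKM, and 130 (TTF) with 0.01 FPKM. At the 1.5-fold mark they numbered 4081 (ESC), 793 (PF) and 197 (TTF). Of genes past 2-fold, the share higher was 66.8% in the ESC pair and 87.5% after centring, 37.2% and 51.1% in the PF pair, and 24.7% in the TTF pair, with 37.8% at a pseudocount of 0.1 FPKM. With 1 FPKM added to both paralogs, the log2 change of Smarca2 over Smarca4 was 0.62 (ESC, 0.92 without) and -0.25 (TTF, -0.65 without), and no change of the 3 pairs beyond counting error turned its sign.

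For the paired iPSC fit, limma called 14 genes, against 3 with no replicate block, 0 with no filter on low values (602 at an unadjusted p below 0.05), and 67 at a minimum of 5 FPKM. Leaving out 1 library required dropping the block too and called 8 to 22 genes, to be set beside the 3 of the fit on all 4 libraries with no block. No member was called in any of these fits. Fits without the block compare values across tables, and the cause of these changes was not tested. Centring turned Smarca2 to 0.01 and Smarcb1 to 0.05. Leaving out 1 library in turn with no block, which assumes that a lone line varies like the others, gave -0.19 to 0.01 for Smarca4, -0.35 to 0.23 for Smarca2, -0.19 to 0.25 for Smarcc2, -0.28 to 0.23 for Smarcb1 and -0.46 to 0.19 for Smarcd1. It gave -0.29 to 0.74 for Smarcd3, -0.42 to 0.12 for Smarce1, -0.45 to 0.51 for Arid1a and -0.41 to 0.25 for Actl6a. Smarcc1 stayed negative in each, from -0.42 to -0.01.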
